A study of Rattus norvegicus with 47 samples.

Results

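The genes described here are 6 aldo-keto reductases of rat liver, Akr1b8, Akr7a3, Akr1a1, Akr1c1, AKR1C3l1 and Akr1b7, out of 14217 genes with a value on the arrays. They were chosen by their measured log2 difference between liver lesions and surrounding liver in earlier results of the same data, so their differences from surrounding liver are given as a description, with no test. Aldo-keto reductases are soluble enzymes that use NADPH to reduce aldehydes and ketones to alcohols. Some of them clear reactive aldehydes from oxidized lipids and from carcinogens, and others interconvert steroids, bile acids and prostaglandins. The liver expresses many of them, and several carbonyl-reducing members belong to the genes that the stress-response factor NRF2 (gene Nfe2l2) switches on.

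All animals were male Wistar rats. At an age of 4 weeks they were given N-nitrosomorpholine, a liver carcinogen, once at 250 mg/kg. After a recovery of 3 weeks phenobarbital was added to their drinking water at a daily 50 mg/kg, which lasted no longer than 17 months. Phenobarbital is a barbiturate that promotes the growth of initiated liver cells, and the surrounding liver was exposed to both compounds like the lesions. Frozen tissue gave 5 arrays of nodules (3 rats), 6 of adenomas (2 rats), 4 of carcinomas (3 rats), 4 of carcinomas whose label names mutated beta-catenin (3 rats) and 7 of surrounding liver (5 rats). Formalin-fixed, paraffin-embedded (FFPE) tissue, cut out with a laser, gave 9 arrays of foci (3 rats), 5 of adenomas (3 rats) and 4 of surrounding liver (4 rats). The 44 arrays came from 7 rats in all, so arrays of a group often shared a rat. Lesions of 1 rat are samples of that rat and not independent animals. By their titles, frozen adenomas 2 and 3 carry the tumour numbers of FFPE adenomas 3 and 4, all of rat 14. Those arrays may therefore show the same tumours in both fixations.

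Values are log2 probe set summaries as the authors deposited them. Each member had 1 probe set: 1370902_at for Akr1b8, 1368121_at for Akr7a3, 1398753_at for Akr1a1, 1393902_at for Akr1c1, 1393221_at for AKR1C3l1 and 1368569_at for Akr1b7. Array medians lay between 5.49 and 5.59 in frozen and between 5.58 and 5.68 in FFPE tissue. A level of one gene is never set against a level of another, because probe sets differ in brightness. The mean level of 9 hepatocyte markers lay between 13.03 and 13.74 in frozen lesions, against 13.61 to 13.93 in frozen surrounding liver, so hepatocyte RNA was abundant on every frozen array. In FFPE tissue it lay between 13.08 and 13.25 in foci and adenomas, against 13.25 to 13.42 in surrounding liver.

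Some arrays went against their labels. Glul, Axin2 and Lgr5 are targets of beta-catenin. Glul read 13.32, 12.96 and 13.31 in beta-catenin carcinomas 2, 3 and 4, against 9.91 to 10.80 in surrounding liver, but 9.26 in beta-catenin carcinoma 1. Carcinomas 1 and 3, which carry no mutation label, read 13.02 and 12.69 for Glul and 5.84 and 6.17 for Lgr5, against 3.11 to 3.70 for Lgr5 in surrounding liver. These are called by their labels below. Without the 3 arrays every member kept its direction against surrounding liver in both kinds of carcinoma. Beta-catenin carcinoma 4 stood apart in Akr1b8 and the AKR1C pair, as described below. FFPE adenoma 4 has a source name that reads surrounding tissue. Over the FFPE set, the lowest mean correlation of an array with the others was 0.886, the next being 0.917.

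Akr1b8 and Akr1b7 lie close together on chromosome 4. In the RefSeq annotation (GRCr8) the order is Akr1b1, Akr1b8, Akr1b10, Akr1b7, and it is shown here because Akr1b8 and Akr1b7, with Akr1b10 between them, differed in opposite directions in most lesions. Their upstream sequences (RefSeq, GRCr8, plus strand, the 250 bases before each start) are given 5′ to 3′.
Akr1b8, chr4:63964171-63964420: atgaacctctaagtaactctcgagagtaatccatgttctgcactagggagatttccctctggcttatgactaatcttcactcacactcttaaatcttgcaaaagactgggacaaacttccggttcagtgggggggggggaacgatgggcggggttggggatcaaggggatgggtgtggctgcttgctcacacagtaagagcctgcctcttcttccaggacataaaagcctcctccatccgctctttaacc
Akr1b7, chr4:64043720-64043969: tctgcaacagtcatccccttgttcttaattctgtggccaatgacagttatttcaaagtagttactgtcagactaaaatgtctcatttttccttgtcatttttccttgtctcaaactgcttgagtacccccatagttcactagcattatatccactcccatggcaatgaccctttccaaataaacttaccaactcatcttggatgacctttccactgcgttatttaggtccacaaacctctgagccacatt
The core of the antioxidant response element to which NRF2 binds, TGACNNNGC, was searched on both strands in windows of 250 bases before to 50 after the start, and a match would have been in capitals. It was found in none of the 5 members with a promoter in the table (Akr1b8, Akr7a3, Akr1a1, AKR1C3l1 and Akr1b7), and in 12.1% of all 33469 promoters of that length. The GC content of these windows was 50.3% for Akr1b8, 55.7% for Akr7a3, 62.3% for Akr1a1, 41.7% for AKR1C3l1 and 43% for Akr1b7. For 5 windows this is a description only. Promoter windows of Akr1b8, Akr7a3 and Akr1a1 held more GC than those of AKR1C3l1 and Akr1b7.

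In every lesion group Akr1b8, Akr7a3 and Akr1a1 averaged higher than in surrounding liver, and Akr1c1 and AKR1C3l1 averaged lower. Akr1b7 was lower in adenomas and in both kinds of carcinoma, and close to surrounding liver in foci and nodules. The direction held array by array for 5 of the 6 genes. Each of the 19 frozen and 14 FFPE lesion arrays was set against the surrounding liver of its own labelled control set. Akr1b8, Akr7a3 and Akr1a1 were higher in all of them, and Akr1c1 and AKR1C3l1 were lower in all of them. In bulk tissue a lower value cannot tell fewer cells of a type from less RNA per cell.

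**Figure D1:**
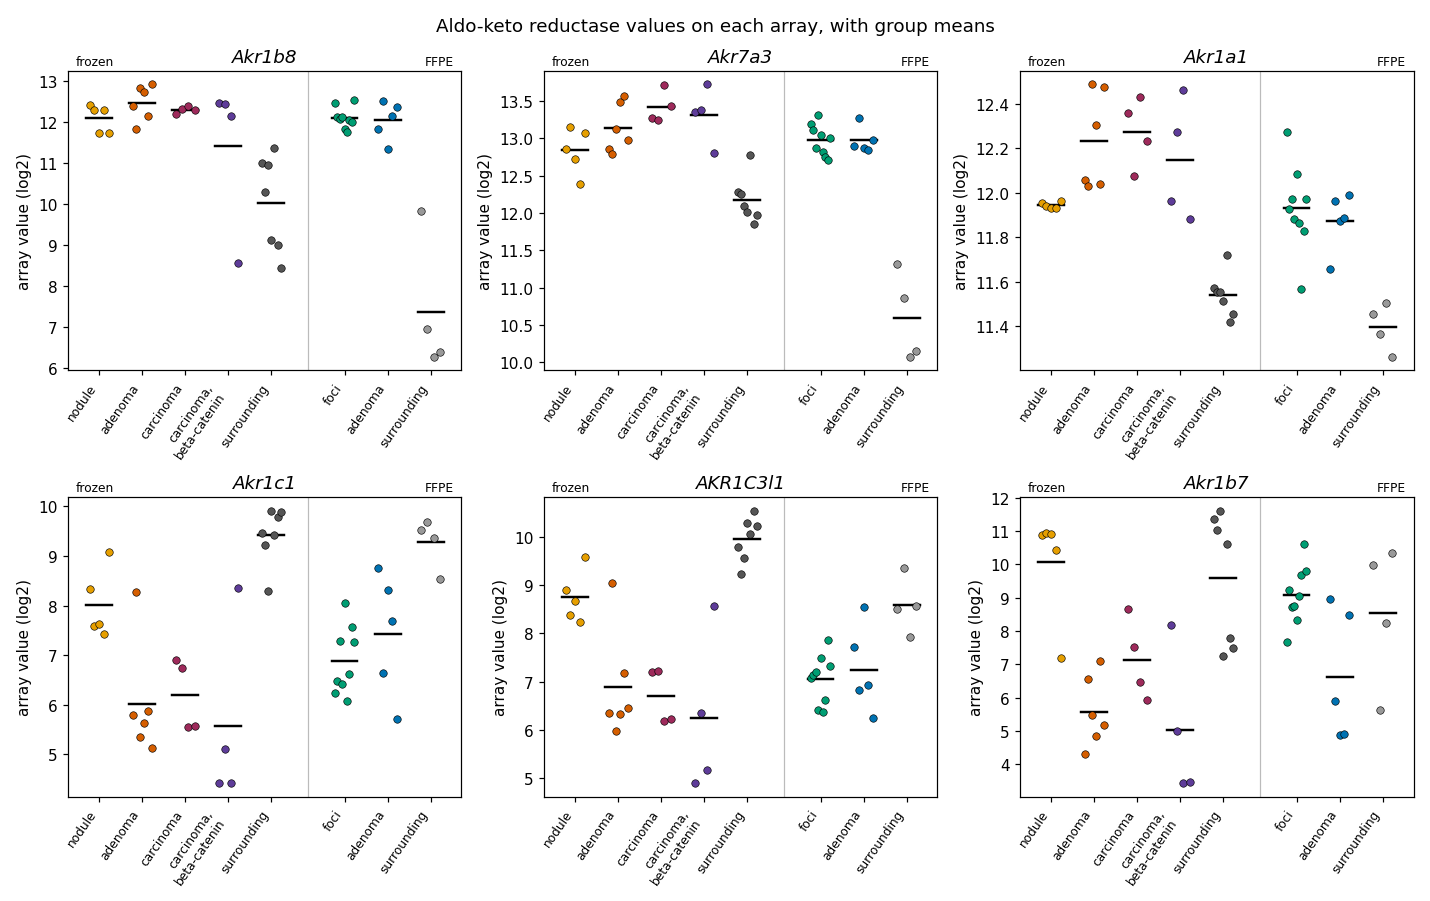
Array values (log2) of the 6 aldo-keto reductases by group, with 1 point per array and a bar at the group mean, frozen groups left and FFPE groups right of the grey line. Group means of Akr1b8, Akr7a3 and Akr1a1 lie above and those of Akr1c1 and AKR1C3l1 below surrounding liver in all lesion groups, while single arrays overlap, such as beta-catenin carcinoma 4 (8.56 for Akr1b8, 8.36 for Akr1c1), nodules for Akr7a3 and both AKR1C genes, and FFPE adenomas for both AKR1C genes.

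Akr1b8 is an aldose reductase-like enzyme that reduces lipid-derived aldehydes. In FFPE foci it read 11.76 at the lowest, 12.08 at the median and 12.55 at the highest (n = 9). The FFPE adenomas read 11.84, 12.52, 11.34, 12.16 and 12.38, against 9.82, 6.94, 6.27 and 6.38 in FFPE surrounding liver. No FFPE lesion overlapped with surrounding liver. The surrounding sample of rat 10 was by far the highest of the 4. The fitted difference between foci and surrounding liver was 4.68 ± 0.34 (SE), which is 25.7-fold, and that between FFPE adenomas and surrounding liver was 4.55 ± 0.38. Without the surrounding sample of rat 10 they were 5.52 and 5.40. Fitted differences come from limma with the rat as a block, so they need not equal the difference of the group means. Those from surrounding liver are adjusted for the rat, with the rat terms taken from all groups of a fixation. They can therefore lie outside the differences within single rats. In frozen adenomas the fitted Akr1b8 difference was 3.23, against 3.24 and 3.88 within the rats. Fitted differences between kinds of lesion rest in part on the surrounding liver of different rats, where few rats held both kinds.

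In frozen tissue Akr1b8 read 12.41, 12.30, 11.73, 12.30 and 11.74 in nodules. In adenomas the lowest, median and highest values were 11.83, 12.57 and 12.92 (n = 6). Surrounding liver spanned 8.45 to 11.36 with a median of 10.30 (n = 7), so nodules and adenomas all lay above it. Carcinomas were tightly grouped at 12.21, 12.32, 12.41 and 12.31. Beta-catenin carcinomas read 12.47, 12.45, 12.16 and 8.56. Beta-catenin carcinoma 4 lay inside the range of surrounding liver and only 0.113 above its own control, while the other 3 lay above all surrounding arrays. Much of the spread of surrounding liver lay between rats: rat 23 read 9.0 and 8.45 and rat 14 read 9.12, while rats 10, 11 and 21 read 10.30 to 11.36. Lesions did not all share this contrast. The nodule of rat 14 read 11.74, against 12.41 and 12.30 in rat 10 and 11.73 and 12.30 in rat 11. The carcinoma of rat 23 read 12.31, against 12.21 in rat 10 and 12.32 and 12.41 in rat 21. Adenomas, which came only from rats 14 and 23, averaged 12.36 and 12.61 there. Fitted differences from surrounding liver were 1.81 ± 0.49 in nodules, 3.23 ± 0.48 in adenomas, 1.96 ± 0.52 in carcinomas and 1.45 ± 0.50 in beta-catenin carcinomas. Without carcinoma 4 that of carcinomas was 1.34, and without beta-catenin carcinoma 4 that of beta-catenin carcinomas was 2.20. The latter ranged over 0.92 to 2.20 when each array was left out.

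Akr7a3 is an aldehyde reductase known in rat for reducing the dialdehyde of the mould toxin aflatoxin. It was already high in frozen surrounding liver, at 11.85 to 12.77 with a median of 12.09. Nodules read 12.85, 13.15, 12.72, 12.39 and 13.07, and adenomas spanned 12.79 to 13.57 with a median of 13.05. Nodules thus overlapped with surrounding liver through 2 arrays, those of rat 11, and adenomas cleared its highest array, that of rat 21, by 0.0113. Carcinomas read 13.27, 13.25, 13.72 and 13.44, and beta-catenin carcinomas 13.35, 13.39, 13.72 and 12.81, all above surrounding liver. The fitted difference was 0.79 ± 0.18 in nodules and between 1.03 and 1.06 in the other 3 frozen lesion groups, about 2.06-fold in adenomas.

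In FFPE tissue the Akr7a3 difference was larger, and surrounding liver read lower there. Foci spanned 12.72 to 13.31 with a median of 13.01, and FFPE adenomas read 12.90, 13.27, 12.87, 12.85 and 12.98. The 4 surrounding samples read 11.31, 10.86, 10.07 and 10.15, and the groups did not overlap. Fitted differences were 2.40 ± 0.15 in foci (5.28-fold) and 2.30 ± 0.17 in FFPE adenomas. Frozen and FFPE values came from differently prepared RNA, and the lesions themselves read alike in both, with group means of 12.97 to 12.98 in FFPE and 12.84 to 13.42 in frozen lesions.

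Akr1a1, the general aldehyde reductase, showed the smallest difference of the 3 higher genes. Nodules read 11.95, 11.94, 11.93, 11.93 and 11.96, a spread of 0.0142 (SD), and adenomas spanned 12.03 to 12.49 with a median of 12.18. Surrounding liver spanned 11.42 to 11.72 with a median of 11.55. Carcinomas read 12.36, 12.07, 12.43 and 12.23 and beta-catenin carcinomas 11.96, 12.27, 12.46 and 11.88. None of the frozen lesions overlapped with surrounding liver. The fitted differences were 0.42 ± 0.11 in nodules, 0.72 ± 0.11 in adenomas, 0.69 ± 0.12 in carcinomas and 0.59 ± 0.12 in beta-catenin carcinomas, that is 1.34-fold to 1.65-fold. FFPE foci spanned 11.57 to 12.27 and FFPE adenomas 11.66 to 11.99, against 11.26 to 11.51 in surrounding liver, again without overlap.

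Akr1c1 and AKR1C3l1 belong to the AKR1C subfamily, whose enzymes act as hydroxysteroid dehydrogenases. Akr1c1 read 8.34, 7.58, 7.62, 7.42 and 9.08 in nodules, and 5.12, 5.71 and 8.27 as lowest, median and highest in adenomas. Surrounding liver spanned 8.30 to 9.91 with a median of 9.46. Nodules overlapped with surrounding liver and adenomas just missed it, through adenoma 2 (8.27), the next adenoma being at 5.87. Carcinomas read 6.90, 6.74, 5.54 and 5.57. Beta-catenin carcinomas read 4.43, 5.10, 4.42 and 8.36, so that 3 of the 4 were the lowest of the frozen arrays. Beta-catenin carcinoma 4, the array with low Akr1b8, lay at the lower edge of surrounding liver. Fitted differences were -1.17 ± 0.60 in nodules, -4.00 ± 0.59 in adenomas (16.0-fold lower), -3.17 ± 0.63 in carcinomas and -3.90 ± 0.61 in beta-catenin carcinomas.

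AKR1C3l1 repeated this pattern. It read 8.89, 8.39, 8.69, 8.24 and 9.59 in nodules, and 5.97, 6.40 and 9.06 as lowest, median and highest in adenomas, against 9.24, 10.06 and 10.55 in surrounding liver. Carcinomas read 7.21, 7.21, 6.19 and 6.23, and beta-catenin carcinomas 4.89, 6.34, 5.15 and 8.58. The high adenoma was again adenoma 2 and the high beta-catenin carcinoma again number 4. Fitted differences were -0.97 ± 0.56, -3.53 ± 0.55, -3.27 ± 0.59 and -3.79 ± 0.57 in nodules, adenomas, carcinomas and beta-catenin carcinomas. Without beta-catenin carcinoma 4 the beta-catenin difference was -4.54 for AKR1C3l1 and -4.80 for Akr1c1.

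In FFPE tissue both AKR1C genes were lower as well. The interquartile range was 2.56 to 3.00 on FFPE arrays and 3.21 to 3.53 on frozen arrays, and the rats differed in part. The sizes of the differences are therefore not ranked against those of frozen lesions. Akr1c1 spanned 6.07 to 8.06 with a median of 6.62 in foci, and read 8.77, 6.64, 8.31, 7.69 and 5.71 in FFPE adenomas, against 9.53, 9.68, 9.37 and 8.53 in surrounding liver. AKR1C3l1 spanned 6.36 to 7.85 in foci and 6.23 to 8.55 in FFPE adenomas, against 7.93 to 9.35 in surrounding liver. Foci did not overlap with surrounding liver for either gene, and FFPE adenomas did through 1 array each. The fitted differences were -2.18 ± 0.41 and -2.0 ± 0.46 for Akr1c1 and -1.28 ± 0.31 and -1.61 ± 0.35 for AKR1C3l1, in foci and FFPE adenomas.

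Over the 26 frozen arrays Akr1c1 and AKR1C3l1 correlated with r = 0.983 (Spearman rho = 0.964), and with r = 0.946 for deviations from the group means. Over the 18 FFPE arrays r was 0.885. In GRCr8 the genes overlap on chromosome 17, so their probe sets may not separate their transcripts, and the values of either gene are uncertain to that extent. These correlations share arrays, rats and preparation. On frozen arrays r with Akr1c1 was -0.746 for Akr1b8, -0.818 for Akr7a3 and -0.854 for Akr1a1. The members were chosen by their differences between lesions and surrounding liver, so these negative values are no separate result. For deviations from the group means r was -0.733, -0.43 and -0.535 in that order. Beta-catenin carcinoma 4, low in Akr1b8 and high in Akr1c1 for its group, is among these arrays. In FFPE tissue the deviations of Akr1b8 and Akr1c1 from the group means had r = -0.0874, so the opposition lay between groups there.

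**Figure D2:**
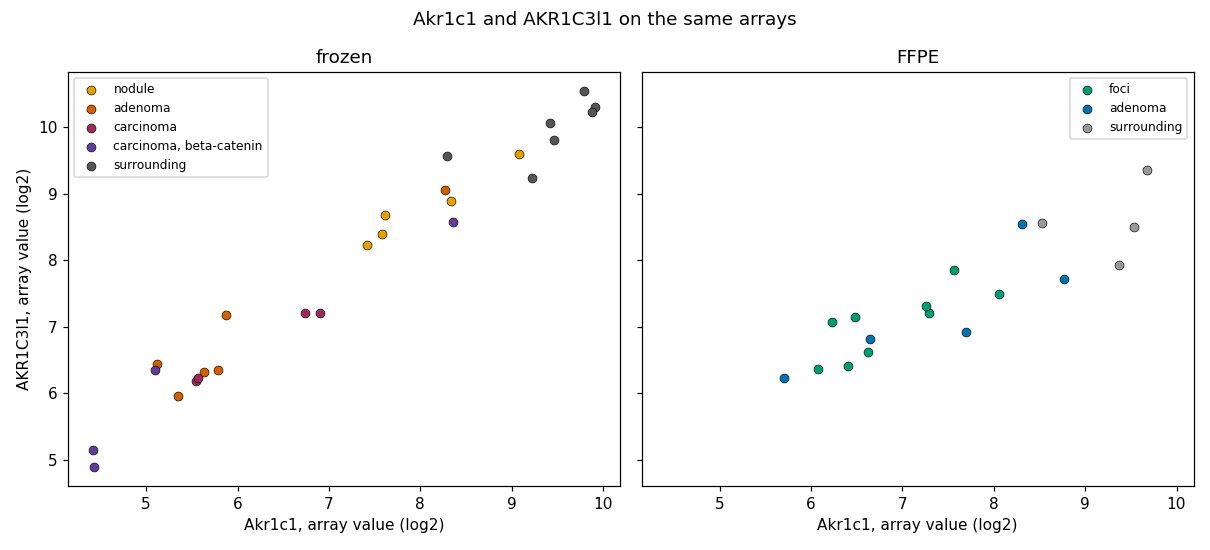
AKR1C3l1 against Akr1c1 (array values, log2) on frozen (left) and FFPE arrays (right), coloured by group. Frozen points run along 1 diagonal, and adenoma 2 (8.27, 9.06) and beta-catenin carcinoma 4 (8.36, 8.58) lie near the surrounding arrays.

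Akr1b7 followed the rat as much as the lesion. It is named in mouse for a secreted vas deferens protein and reduces aldehydes that arise in steroid synthesis. In frozen surrounding liver it read 11.36 and 11.03 in rat 10, 11.61 in rat 11 and 10.60 in rat 21, but 7.25 in rat 14 and 7.79 and 7.51 in rat 23. Nodules read 10.90 and 10.94 in rat 10, 10.93 and 10.43 in rat 11, and 7.18 in rat 14. Each nodule thus lay near its own surrounding liver, and the single low nodule came from a rat with low surrounding liver. All 6 adenomas came from rats 14 and 23 and spanned 4.32 to 7.10, below the surrounding liver of those rats.

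Carcinomas read 8.67 in rat 10, 7.51 and 6.46 in rat 21 and 5.94 in rat 23. Beta-catenin carcinomas read 8.19 in rat 10, 5.00 in rat 21, and 3.44 and 3.49 in rat 23. All carcinomas were lower than the surrounding liver of their own rat. By label, the beta-catenin carcinomas were lower than the carcinomas without that label in each of the 3 rats. In rat 10, however, Glul went against both labels, at 9.26 in beta-catenin carcinoma 1 and 13.02 in carcinoma 1. Carcinoma 3 of rat 21 (6.46 for Akr1b7) had high Glul too (12.69). Within rats the difference from surrounding liver was -3.00, -5.61 and -4.18 in beta-catenin carcinomas of rats 10, 21 and 23, and -2.53, -3.62 and -1.70 in carcinomas of the same rats. Beta-catenin carcinoma 4, which stood apart for Akr1b8 and the AKR1C pair, read close to beta-catenin carcinoma 3 of that rat here. Fitted differences were -0.57 ± 0.43 in nodules, -2.08 ± 0.43 in adenomas, -2.52 ± 0.46 in carcinomas and -4.17 ± 0.44 in beta-catenin carcinomas (17.9-fold lower). Without the rat as a block the nodule difference was 0.48 and that of adenomas -4.01.

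**Figure D3:**
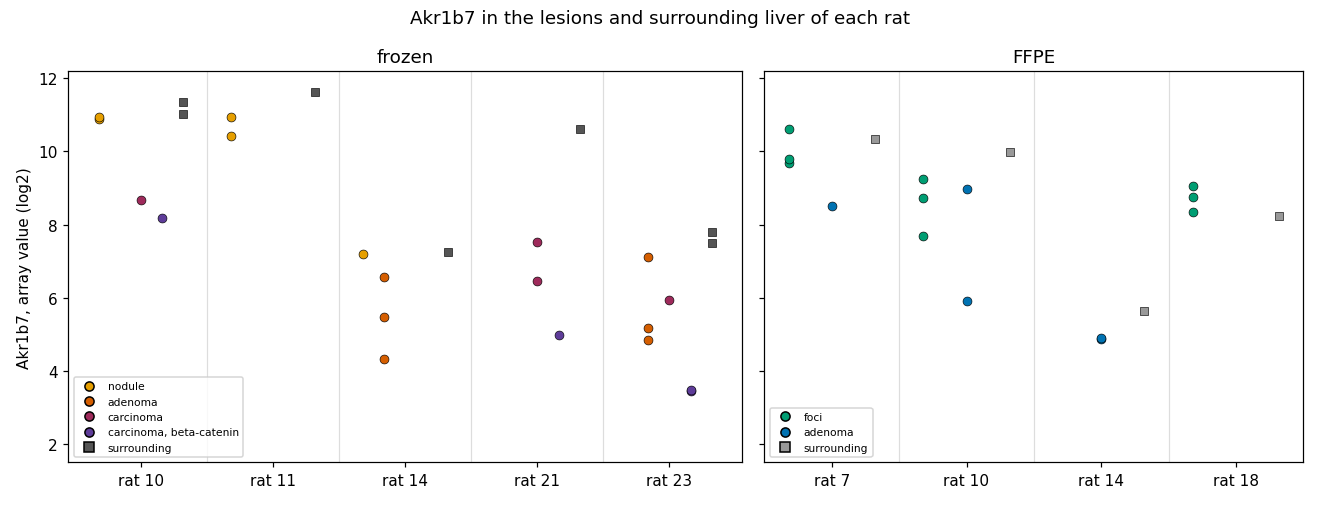
Akr1b7 (array values, log2) in the lesions (circles) and surrounding liver (squares) of each rat, frozen left and FFPE right. Surrounding liver of rats 14 and 23 reads 7.25 to 7.79 and that of the other frozen rats 10.60 to 11.61, and adenomas and carcinomas lie below the surrounding liver of their rat.

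FFPE tissue had the same contrast between rats. Akr1b7 read 9.99 in rat 10, 5.65 in rat 14, 8.24 in rat 18 and 10.33 in rat 7 in FFPE surrounding liver, and rat 14 was again the low one. Foci spanned 7.69 to 10.61 with a median of 9.04, and 4 of the 9 were higher and 5 lower than their own control. FFPE adenomas read 8.97, 5.92, 4.88, 4.90 and 8.50, and all 5 were lower than their own control, with differences of -4.07 to -0.747. Fitted differences were -0.26 ± 0.40 in foci and -1.49 ± 0.44 in FFPE adenomas.

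**Figure D4:**
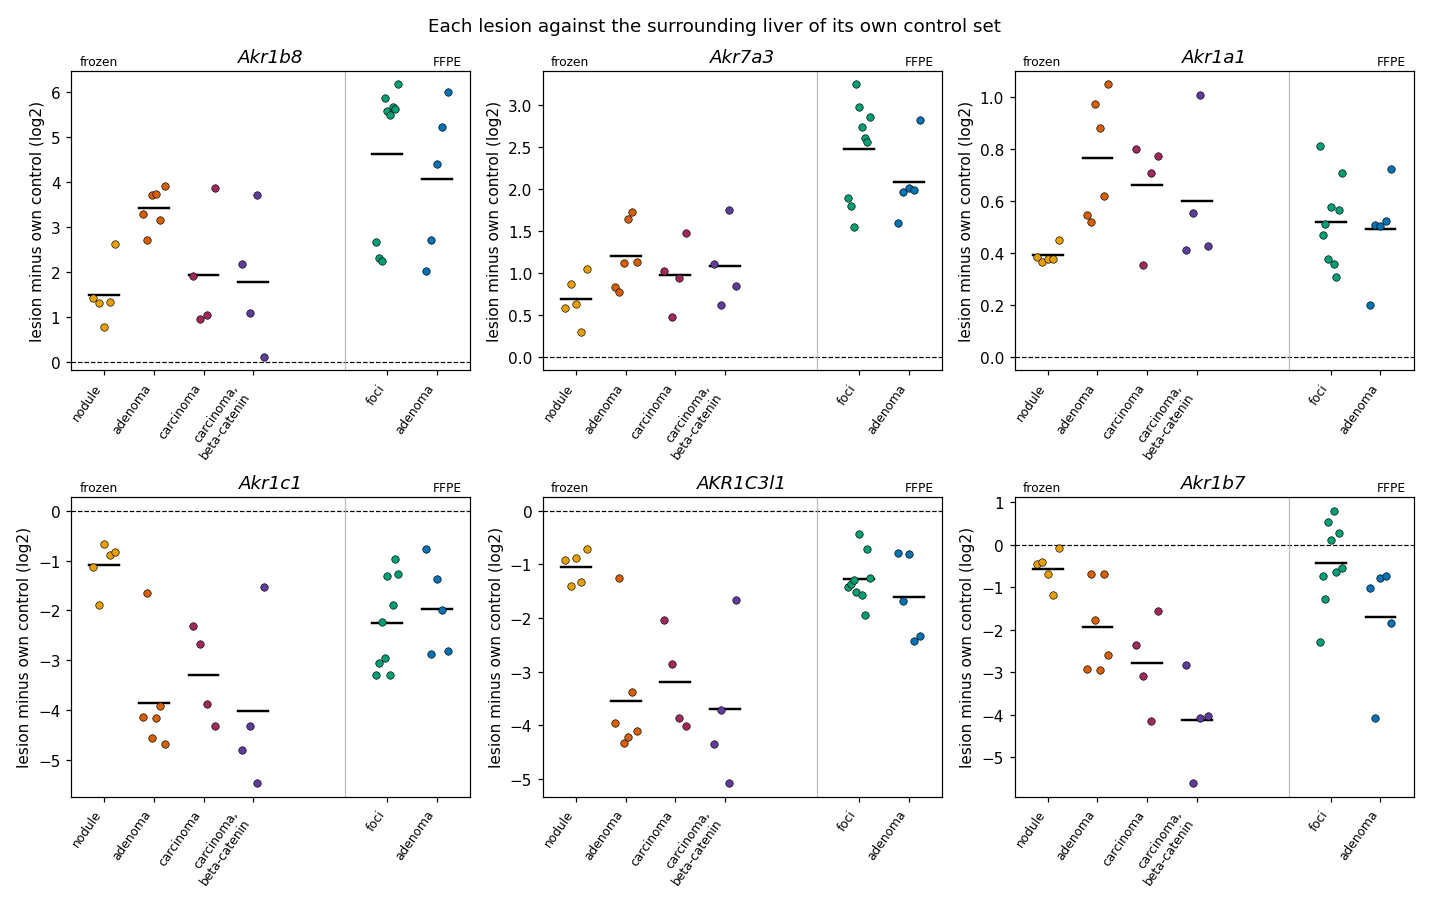
Each lesion array minus the mean surrounding liver of its own control set (log2), with 1 point per array, a bar at the group mean and a dashed line at 0. All 33 lesion arrays lie above 0 for Akr1b8, Akr7a3 and Akr1a1 and below 0 for Akr1c1 and AKR1C3l1. Akr1b7 lies on both sides of 0 in foci only.

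At an adjusted p under 0.05 over all 14217 genes, all 6 members were called against surrounding liver in adenomas (25% of all genes were called there), in carcinomas (11.4%) and in beta-catenin carcinomas (17.3%). In foci 5 of 6 were called (3.18% of all genes) and in FFPE adenomas 5 of 6 (2.16%), Akr1b7 being the exception in both, and in nodules none was (0.225%). In nodules 5 of 6 were called when only nodules and surrounding liver were fitted, where 213 genes were called. These contrasts were used to choose the members, so nothing is read from the counts. In nodules 27 of all genes were called higher and 5 lower (0.0352%). Groups without overlap with surrounding liver were counted too: higher without overlap were 2 members in nodules (1.53% of all genes), 3 in adenomas (5.27%), 3 in carcinomas (5.61%), 2 in beta-catenin carcinomas (4.11%), 3 in foci (1.2%) and 3 in FFPE adenomas (1.94%). Lower without overlap were 0 members in nodules (0.816%), 3 in adenomas (3.55%), 2 in carcinomas (7.85%), 1 in beta-catenin carcinomas (5.96%), 2 in foci (1.21%) and 0 in FFPE adenomas (1.32%).

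Comparisons between kinds of lesion were not themselves used to choose the members and were tested with limma, with adjustment over all 14217 genes. With the rat as a block they rest in part on surrounding liver, and differences from it were used in that choice. Their p-values are therefore not fully independent of the choice. Between adenomas and nodules no member passed, and neither did any other gene (0% called, with 2265 genes at an unadjusted p under 0.05). The largest differences were those of Akr1c1, at -2.84 ± 0.71 (limma, adjusted p = 0.088), and of AKR1C3l1, at -2.56 ± 0.66 (adjusted p = 0.10). Adenoma 2 decided both, since without it the differences were -3.29 and -3.02 with adjusted p = 0.0146 and 0.0134. Akr1b7 differed by -1.51 ± 0.51 (adjusted p = 0.167) and Akr1b8 by 1.42 ± 0.58 (adjusted p = 0.239), while the group means of Akr1b8 differed by only 0.39. Akr1a1 (0.30 ± 0.14, adjusted p = 0.285) and Akr1b7 did not overlap between the groups, which 1.09% of all genes did with adenomas higher and 1.62% with adenomas lower. For Akr7a3 the difference was 0.25 ± 0.21 (adjusted p = 0.582). Rat 14 alone gave both kinds of lesion, and there Akr1b8 read 11.74 in the nodule and averaged 12.36 in adenomas.

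Between beta-catenin carcinomas and adenomas Akr1b7 was lower by -2.09 ± 0.49 (limma, adjusted p = 0.00995, 4.25-fold) and Akr1b8 by -1.78 ± 0.56 (adjusted p = 0.0384, 3.44-fold). They were 2 of 6 members, where 13.7% of all genes were called, 5.26% higher and 8.48% lower. Rat 23 was the only rat with both kinds of lesion. There Akr1b7 read 3.44 and 3.49 in beta-catenin carcinomas, against 4.84, 7.10 and 5.19 in adenomas, and Akr1b8 read 12.16 and 8.56, against 12.73, 12.16 and 12.92. The Akr1b8 call rested on beta-catenin carcinoma 4: without it the difference was -0.86 (adjusted p = 0.217). It was also lost, with limma adjusted p between 0.0509 and 0.0939, without surrounding array 4 or 5, beta-catenin carcinoma 2, or adenoma 4, 5 or 6. Without the 3 carcinomas against their mutation label both calls stood, at -2.48 for Akr1b7 (adjusted p = 0.00403) and -1.94 for Akr1b8 (adjusted p = 0.0477). Both calls were lost without the block for the rat, where the group means differed by only -0.55 for Akr1b7 (adjusted p = 0.734) and -1.07 for Akr1b8 (adjusted p = 0.203), and with the control set as the block (adjusted p = 0.523 and 0.684). Akr1a1 (-0.13 ± 0.13, adjusted p = 0.534) and AKR1C3l1 (-0.26 ± 0.64, adjusted p = 0.824) were not called.

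Between carcinomas without the mutation label and adenomas no member passed, where 2.95% of all genes did, 1.17% higher and 1.78% lower. Akr1b8 differed by -1.27 ± 0.60 (limma, adjusted p = 0.218), Akr1c1 by 0.83 ± 0.74 (adjusted p = 0.533) and Akr1b7 by -0.45 ± 0.53 (adjusted p = 0.659). The group means of Akr1b8 differed by only -0.17. In rat 23, the only rat with both kinds, Akr1b8 read 12.31 in the carcinoma and averaged 12.61 in adenomas. For Akr1b7 the sign depended on the block, being 1.57 without it. Between beta-catenin carcinomas and carcinomas no gene passed (0% called, with 723 at an unadjusted p under 0.05). Akr1b7 was the member with the largest difference there, -1.64 ± 0.49 (limma, adjusted p = 0.593), and without the 3 carcinomas that go against their mutation label it was -2.41 (adjusted p = 0.0557). Between FFPE adenomas and foci no gene passed (0% called, 633 at an unadjusted p under 0.05), and Akr1b7 differed by -1.23 ± 0.41 (limma, adjusted p = 0.999). No member separated these groups without overlap: 5.06% of all genes were higher and 7.6% lower without overlap between carcinomas and adenomas, 5.28% and 6.62% between beta-catenin carcinomas and adenomas, 1.68% and 1.13% between beta-catenin carcinomas and carcinomas, and 0.0563% in either direction between FFPE adenomas and foci. Of the 30 differences tested between kinds of lesion, 10 were smaller than their own standard error with and without the block.

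The other aldo-keto reductases were taken from a list of the family, of which 13 further genes were measured. Akr1b1, the aldose reductase that reduces glucose to sorbitol, rose in adenomas by 1.65 ± 0.29 (limma, adjusted p = 0.000438), in carcinomas by 1.40 ± 0.31 (adjusted p = 0.00607), in beta-catenin carcinomas by 0.88 ± 0.30 (adjusted p = 0.0483), in foci by 1.01 ± 0.26 (adjusted p = 0.0295) and in FFPE adenomas by 1.22 ± 0.29 (adjusted p = 0.0227). It averaged 9.49 ± 0.62 in adenomas, against 8.04 ± 0.36 in surrounding liver (SD, n = 6 and 7). Akr1c19 rose in adenomas by 1.72 ± 0.34 (limma, adjusted p = 0.00119), in beta-catenin carcinomas by 1.51 ± 0.35 (adjusted p = 0.00545), in foci by 1.48 ± 0.34 (adjusted p = 0.0128) and in FFPE adenomas by 2.12 ± 0.38 (adjusted p = 0.00149). Genes of 1 subfamily went in different directions: within the AKR1B genes Akr1b1 and Akr1b8 were higher and Akr1b7 lower, and within the AKR1C genes Akr1c19 was higher and Akr1c1 and AKR1C3l1 lower.

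Akr1c3 was lower in adenomas, at -2.21 ± 0.49 (limma, adjusted p = 0.00242), in carcinomas, at -1.74 ± 0.52 (adjusted p = 0.0338), and in beta-catenin carcinomas, at -1.65 ± 0.50 (adjusted p = 0.027). Its group means in adenomas and surrounding liver, 5.59 and 6.64, differed by only -1.05. Those arrays overlapped, at 4.51 to 7.41 and 5.08 to 8.24. Carcinomas averaged 4.71 and beta-catenin carcinomas 5.17, both below adenomas. Akr1c14, the hydroxysteroid dehydrogenase of rat liver cytosol, differed in adenomas by -0.92 ± 0.19 (limma, adjusted p = 0.00178). It was higher in beta-catenin carcinomas than in adenomas by 0.95 ± 0.22 (limma, adjusted p = 0.0101), averaging 12.15 ± 0.13 and 11.05 ± 0.36 (SD, n = 4 and 6). Akr1e2, the anhydrofructose reductase, differed in adenomas by -0.61 ± 0.16 (limma, adjusted p = 0.00897) and in beta-catenin carcinomas by -0.63 ± 0.17 (adjusted p = 0.0119). Akr1c13 rose in FFPE adenomas by 0.76 ± 0.19 (limma, adjusted p = 0.0293).

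Akr1d1, the steroid reductase of bile acid synthesis, Akr7a2, the neighbour of Akr7a3, Akr1b10, Akr1c15 and the 3 potassium channel beta subunits Kcnab1, Kcnab2 and Kcnab3 were called in no comparison. Akr1d1 stayed between -0.18 and 0.21 in all 6 comparisons with surrounding liver, and Akr7a2 between 0.11 and 0.29. Akr1c15 was the most variable, spanning 6.78 to 11.18 in adenomas and 8.18 to 12.11 in carcinomas, against 7.35 to 8.67 in surrounding liver. In all, 2 of the 13 rose and 3 fell in adenomas, against 15.4% and 9.57% of all genes, and the median of the 13 was 0.083, against 0.022 over all genes.

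**Figure D5:**
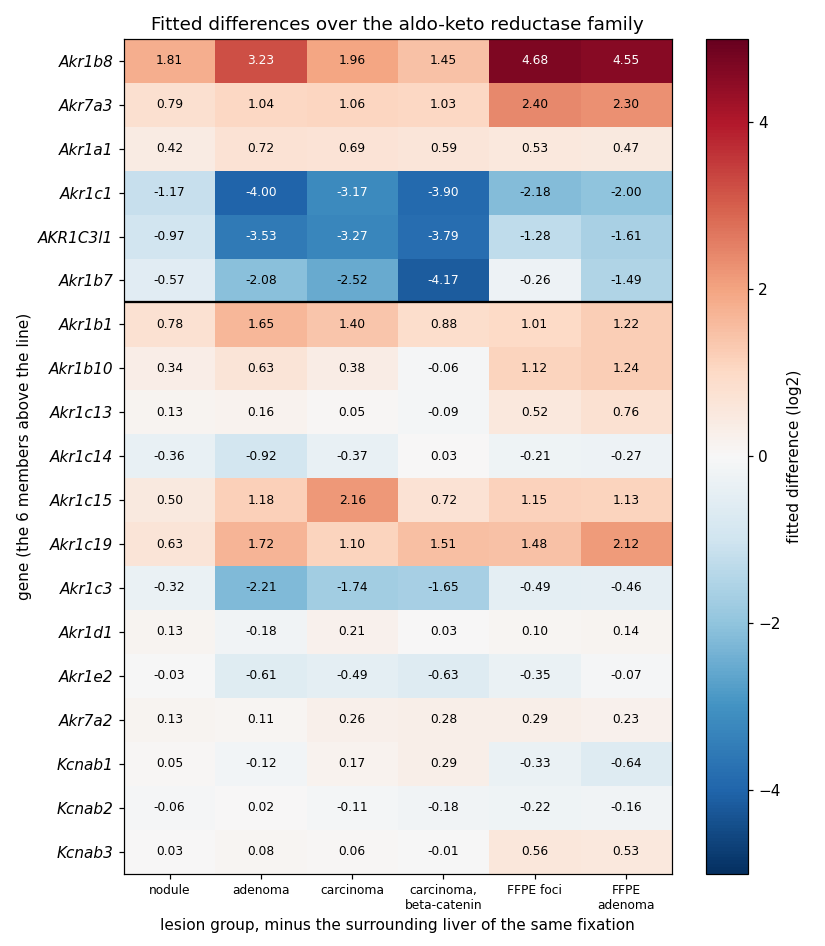
Fitted differences (log2) from the surrounding liver of the same fixation for the 6 members (above the line) and the 13 other measured aldo-keto reductases, with red for higher and blue for lower in the lesion. Akr1b8 reaches 4.68 in FFPE foci, Akr1c1 reaches -4.00 in adenomas, and Akr1d1 stays near 0 throughout. Akr1b10 and Akr1c14 were read by different probe sets in frozen and FFPE tissue.

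Genes that NRF2 is known to drive, other than the members, rose together in the same comparisons. Like the other gene lists of this report, this list was chosen with earlier results of these data known. Its counts and p-values are therefore a description and no independent support. Of 20 measured, 12 rose in adenomas, 14 in carcinomas, 13 in beta-catenin carcinomas, 15 in foci and 14 in FFPE adenomas, against 15.4%, 4.48%, 7.74%, 1.81% and 1.29% of all genes, and none fell. In nodules 2 rose, against 0.19% of all genes: Tkt, the transketolase of the pentose phosphate pathway (0.85 ± 0.17, limma, adjusted p = 0.0397), and Ugdh, which makes UDP-glucuronate (0.78 ± 0.15, adjusted p = 0.0315). The list median was 1.43 in adenomas and 1.40 in foci, against 0.022 and -0.022 over all genes. Slc7a11, the cystine importer, rose most in adenomas (4.52 ± 0.62, limma, adjusted p = 4.79e-05). Gstp1, the placental glutathione transferase, rose by 2.32 ± 0.34 in adenomas (adjusted p = 8.15e-05), and Srxn1, the sulfiredoxin, by 2.21 ± 0.38 (adjusted p = 0.000368).

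Beta-catenin carcinoma 4 stood apart in this list too. Of the 20 genes, 17 read lowest in it among the 4 beta-catenin carcinomas, against 23% of all genes. Srxn1 read 11.13, 11.74, 11.07 and 8.57 in the 4 beta-catenin carcinomas, and Gstp1 read 14.05, 14.35, 13.70 and 12.17. Both were shown because they were among the genes most like Akr1b8 over frozen arrays that include this tumour. Their low readings in it are therefore no separate result. In surrounding liver of the same rat Srxn1 read 8.65 and 8.62 and Gstp1 10.30 and 10.48, so Gstp1 still lay above it. In that tumour Akr1b8 and most of the list thus read lower than in the other beta-catenin carcinomas. Its Glul (13.31) was as high as in the other 2 with high Glul.

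Among 22 other measured enzymes that reduce or oxidize carbonyls, directions were mixed. In adenomas 6 rose and 5 fell, in carcinomas 4 and 6, in beta-catenin carcinomas 2 and 6, in foci 4 and 1, and in FFPE adenomas 5 and 1, with none called in nodules. Over all genes 15.4% rose and 9.57% fell in adenomas, 4.48% and 6.91% in carcinomas, 7.74% and 9.58% in beta-catenin carcinomas, 1.81% and 1.36% in foci, and 1.29% and 0.872% in FFPE adenomas. Aldh3a1, an aldehyde dehydrogenase, rose by 3.54 ± 1.20 in adenomas (limma, adjusted p = 0.0358), Ptgr1, which reduces alkenals, by 1.94 ± 0.29 (adjusted p = 9.34e-05) and the carbonyl reductase Cbr3 by 1.61 ± 0.35 (adjusted p = 0.00223). Dcxr, the xylulose reductase, was lower (-1.30 ± 0.27, limma, adjusted p = 0.00148), as were Adh4 (-0.94 ± 0.16, adjusted p = 0.000396) and Hagh, the hydrolase of the glyoxalase pathway (-0.88 ± 0.17, adjusted p = 0.00077). The list median was -0.10 in adenomas, against 0.022 over all genes.

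Among steroid-metabolizing enzymes outside the family, more were called lower than higher. Of 21 measured, 10 fell and 1 rose in adenomas, 7 fell in carcinomas, 10 in beta-catenin carcinomas, 6 in foci (where 1 rose) and 3 in FFPE adenomas, and none was called in nodules. The shares of all genes that fell were 9.57%, 6.91%, 9.58%, 1.36% and 0.872% in those groups. Cyp8b1, the sterol hydroxylase that sets the cholic acid share of bile acids, fell in adenomas (-3.85 ± 0.85, limma, adjusted p = 0.00245), as did Sult1e1, the estrogen sulfotransferase (-2.89 ± 0.59, adjusted p = 0.00139), and Hsd3b5, a hydroxysteroid dehydrogenase (-2.68 ± 0.53, adjusted p = 0.00109). Hsd3b5 was lower still in beta-catenin carcinomas (-4.56 ± 0.55 against surrounding liver, limma, adjusted p = 2.15e-05, and -1.88 ± 0.61 against adenomas, adjusted p = 0.0463). The list median was -0.45 in adenomas, -0.57 in carcinomas and -0.58 in beta-catenin carcinomas, against medians over all genes between -0.018 and 0.022.

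Other cell types also shifted between groups. Of 6 markers of bile duct cells, 2 (Krt19 and Epcam) rose in adenomas and in FFPE adenomas, and the mean level of the 6 lay between 6.03 and 8.43 in adenomas, against 5.23 to 5.87 in surrounding liver. Of 8 macrophage markers 3 fell in adenomas, 3 in carcinomas, 5 in beta-catenin carcinomas and 3 in foci, against 9.57%, 6.91%, 9.58% and 1.36% of all genes, and their mean level lay between 7.63 and 8.48 in beta-catenin carcinomas, against 8.74 to 9.35 in surrounding liver. Of 8 fibroblast markers 3 collagens rose in foci and in FFPE adenomas, and Col1a1 in beta-catenin carcinomas. Of the 9 hepatocyte markers 4 fell and 1 (Apoa1) rose in adenomas, 3 fell in each kind of carcinoma, and 1 fell and 1 rose in foci and in FFPE adenomas. Of 5 blood markers, Hbb and Alas2 fell in adenomas and Hbb in beta-catenin carcinomas. Over all genes 15.4% rose and 9.57% fell in adenomas, 6.91% fell in carcinomas, and 7.74% rose and 9.58% fell in beta-catenin carcinomas. The shares that rose and fell were 1.81% and 1.36% in foci, and 1.29% and 0.872% in FFPE adenomas. The part of these shifts in the aldo-keto reductase differences was not tested.

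For each member the 3 genes whose values followed it most closely were taken over the 26 frozen and the 18 FFPE arrays. Akr1b8 went with Ddit4l (r = 0.937), Gstp1 (0.907) and Srxn1 (0.89) on frozen arrays and with Gstp1 (0.981), Akr7a3 (0.977) and Pcp4 (0.962) on FFPE arrays. Akr7a3 went with Mmd (0.917), Gnpat (0.915) and L3mbtl2 (0.913) on frozen arrays, and with Akr1b8, Ugdh (0.963) and Gstp1 (0.96) on FFPE arrays. Akr1a1 went with Txnrd1 (0.933), Ptgr1 (0.932) and Tubb6 (0.931) on frozen and Snx10 (0.904), Maff (0.90) and Ica1 (0.893) on FFPE arrays. On frozen arrays Akr1c1 and AKR1C3l1 were each other's nearest gene, followed by Gpld1 (0.923) and Sez6 (0.915) for Akr1c1 and Cxcl12 (0.935) and Sez6 (0.93) for AKR1C3l1. On FFPE arrays the nearest were AKR1C3l1, Cyp2e1 (0.881) and Hsd17b2 (0.873) for Akr1c1 and Slc25a13 (0.93), Slco1b2 (0.896) and Lcat (0.892) for AKR1C3l1. Akr1b7 went with Gstp3 (0.917), Trim24 (0.914) and Cux2 (0.91) on frozen arrays and with Apcs (0.879), Fabp3 (0.859) and Klkb1 (0.853) on FFPE arrays. No other member was among the nearest genes of Akr1b7, and its correlation with Akr1b8 was -0.0797 on frozen and -0.00541 on FFPE arrays. For deviations from the group means that correlation was 0.542 on frozen and 0.218 on FFPE arrays.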

How the data were processed

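The arrays carry 1 colour, and the authors deposited a log2 value per probe set, whose background correction and normalization are not given in the sources used here. Per the labels' protocols, frozen tissue was extracted with TRIzol and FFPE tissue by laser microdissection. Of 31042 probe sets, 20826 had a single gene symbol and gave 14217 genes, each represented by its brightest probe set in a fixation. The rest, 436 with more than 1 symbol and 9780 without any, did not enter. Frozen and FFPE arrays had a limma 3.58.1 fit each (R 4.3.3), with group and rat as fixed terms and an intensity trend, on 26 frozen arrays (17 residual degrees of freedom) and 18 FFPE arrays (12). A call means a p under 0.05 after Benjamini-Hochberg adjustment. The script was tested on simulated data. Arrays carry no counts, and their number limits the precision.

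Rat numbers come from the sample titles, since lesions and surrounding liver share rats. In frozen tissue the deviations of arrays from their group mean correlated with a median r of 0.127 in the same rat (50 pairs) and -0.025 between rats, and 0.11 (23 pairs) and -0.0395 in FFPE tissue. The 3 arrays named C43 normal have conflicting labels and entered no comparison. The members and gene lists were chosen with earlier results of these data known. Named genes were the 6 members, all measured genes of the family, the 3 largest called changes of a list and the 3 genes most like each member. Alternatives were other blocks, probe set rules, filters, normalization, trend, groups and left-out arrays.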

Additional observations from a re-analysis of the deposited data

Results flagged for a closer look

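Within groups of 4 to 10 arrays, 48 sets of member values were examined for a lowest or highest array that lay far from the others by Dixon's criterion, and 4 met it, where chance gives about 1 in 20. Akr1b8 in beta-catenin carcinoma 4 (8.56, the next lowest being 12.16) and Akr1b7 in nodule 5 (7.18, the next lowest being 10.43) were low. Nodule 5 is the only nodule of rat 14, whose surrounding liver read 7.25. Akr1c1 was low in surrounding array 3 (8.30, the next being 9.22) and high in adenoma 2 (8.27, the next being 5.87).

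The FFPE array named C43 normal lay above every FFPE surrounding array for Akr7a3 (11.43, against at most 11.31), Akr1c1 (9.95, against at most 9.68) and AKR1C3l1 (9.58, against at most 9.35). It is a single array whose labels conflict, so no comparison was made.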

How the results depend on the processing

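Of 6 members, none was called between adenomas and nodules, 1 with no replicate block or a random block for the rat (Akr1b7) and 0 to 2 when each array was left out. Between beta-catenin carcinomas and adenomas 2 were called, 0 with no replicate block, with the control set or a random rat block or with only the groups compared, 1 without beta-catenin carcinomas 1 and 4, and 1 to 2 when each array was left out. The cause was not tested. The rat block changed no other member call between lesions.

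Signs turned for small differences. Between carcinomas and adenomas Akr1b7 (-0.45) was 1.57 with no replicate block, 1.15 with a random block and 0.23 with only those groups, and Akr7a3 (0.019) was -0.013 with the control set block, -0.033 after quantile normalization, -0.029 without the 3 carcinomas against their label and -0.10 to 0.12 when each array was left out. Akr7a3 between adenomas and nodules was -0.15 with only those groups. Between beta-catenin carcinomas and adenomas AKR1C3l1 was 0.22 with only those groups, 0.089 without the doubtful label and -1.18 to 0.32 when each array was left out, and Akr1a1 was 0.10 without beta-catenin carcinomas 1 and 4. Between beta-catenin carcinomas and carcinomas Akr1a1 was 0.068 without the 3 carcinomas and 0.11 without beta-catenin carcinomas 1 and 4, and Akr1b8 was 0.25 without these and -0.97 to 0.15 when each array was left out. Between FFPE adenomas and foci Akr1c1 (0.18) ranged over -0.41 to 0.80 when each array was left out. The 10 differences inside their standard error turned sign in 21 of 108 alternatives.

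Against surrounding liver, members called ranged over 0 to 5 in nodules, 4 to 6 in carcinomas, 5 to 6 in beta-catenin carcinomas, 3 to 5 in foci and 2 to 6 in FFPE adenomas, and stayed at 6 in adenomas. The members were chosen by these comparisons, so nothing is read from their counts. Between kinds of lesion, counts of called genes ran over 0 to 437 for adenomas and nodules, 0 to 2322 for carcinomas and adenomas (419 as reported), 0 to 3948 for beta-catenin carcinomas and adenomas (1953 as reported) and 0 to 151 between the 2 kinds of carcinoma. Against surrounding liver they ran over 0 to 213 in nodules, 1460 to 5612 in adenomas, 473 to 2436 in carcinomas, 1390 to 3870 in beta-catenin carcinomas, 233 to 581 in foci and 137 to 385 in FFPE adenomas.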

Other observations

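The 2 frozen arrays named C43 normal, which entered no comparison, read 7.36 and 7.49 for Akr1b8, below every lesion and every frozen surrounding array (8.45 to 11.36). They read 11.65 and 11.61 for Akr7a3, 9.47 and 9.48 for Akr1c1, 9.84 and 10.00 for AKR1C3l1, 11.45 and 11.41 for Akr1a1, and 8.94 and 9.17 for Akr1b7. Akr1c3, 1 of the 3 other family genes that fell in adenomas, read 8.54 and 8.57 on them, against 5.08 to 8.24 in frozen surrounding liver.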
